A study of Mus musculus with 44 samples.

Results

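A set of 654 genomic regions carried an NF-kB peak in LPS-treated wild-type macrophages and in untreated macrophages lacking Dnmt3a, and none in untreated wild-type macrophages. The regions were chosen by that presence alone, from 5605 regions made by joining the overlapping peaks of 8 deposited peak lists on chromosomes 1 to 19, X and Y (minimum overlap 1 bp). The cells were bone marrow-derived macrophages of C57BL/6 mice, grown with 30 ng/ml M-CSF and collected between day 8 and day 10. ChIP-seq with an NF-kB or an IRF3 antibody was made in Dnmt3a KO cells with 10 ng/ml LPS for 6 hours, untreated Dnmt3a KO cells, WT cells with the same LPS dose, and untreated WT cells. Each NF-kB list merged 3 samples, and the IRF3 lists merged 3, 2, 2 and 3 samples in that order of conditions. The labels name 1 input sample for each genotype and treatment, and do not give how Dnmt3a was deleted, the age or sex of the mice, or which NF-kB subunit was precipitated. A list of peak positions cannot show whether the cells expressed macrophage markers or had lost Dnmt3a. With 1 merged list per condition there is no spread between replicates, so no difference between lists was tested. Ranges after a percentage are 95% exact (Clopper-Pearson) binomial intervals and account for counting error alone.

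NF-kB is a family of dimeric transcription factors held in the cytoplasm of resting macrophages by inhibitory IkB proteins. Lipopolysaccharide (LPS), a bacterial cell wall component, is sensed by Toll-like receptor 4, which leads to degradation of IkB and entry of NF-kB into the nucleus. There it binds promoters and enhancers of cytokine, chemokine and feedback genes. IRF3 is activated by another branch of the same receptor and is known for inducing type I interferon. Dnmt3a places methyl groups on cytosines at CpG sites that were unmethylated before. Comparing the untreated KO list with the WT lists asks whether NF-kB peaks that WT cells had after LPS were already recorded in KO cells without it.

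A promoter window was defined as the 250 bases before and 50 bases after a RefSeq gene start. Such a window was overlapped by 2 of the 654 regions (0.306%, 0.0371 to 1.10%). Among the 4724 regions with any NF-kB peak the share was 0.804%, which lies within that interval. Both windows lay whole inside their region, and they are printed because they are the promoter sequence that the regions reach. The region with the Gm5636 window had deposited NF-kB q-values of 0.892 in KO LPS, 0.0704 in untreated KO and 0.904 in WT LPS. Its WT LPS peak ranked 2158 of 2494 by deposited p-value, and no protein-coding gene lay within 100 kb. The sequences are from RefSeq (GRCm38.p6, the assembly of the deposited mm10 coordinates), 5′ to 3′ on the strand of the gene, with CpG sites in capitals. The Gm46074 window lies at chr8:20649078-20649377 on the plus strand, and the Gm5636 window at chrX:47436492-47436791 on the minus strand.
Gm46074: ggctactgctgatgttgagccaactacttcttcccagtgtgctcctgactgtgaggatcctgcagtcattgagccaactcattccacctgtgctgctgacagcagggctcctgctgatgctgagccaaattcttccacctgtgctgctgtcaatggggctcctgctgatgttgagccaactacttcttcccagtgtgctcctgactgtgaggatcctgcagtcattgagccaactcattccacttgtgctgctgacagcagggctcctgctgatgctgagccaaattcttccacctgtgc
Gm5636: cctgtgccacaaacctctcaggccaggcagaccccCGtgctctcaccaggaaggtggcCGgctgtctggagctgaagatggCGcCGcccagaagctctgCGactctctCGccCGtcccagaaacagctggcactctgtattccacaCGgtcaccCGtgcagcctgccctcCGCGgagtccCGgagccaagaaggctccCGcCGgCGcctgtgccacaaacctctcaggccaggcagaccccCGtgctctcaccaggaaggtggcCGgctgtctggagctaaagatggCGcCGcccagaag

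The pair of windows differ in base composition, and each holds an internal repeat of its own. The Gm46074 window held 0 CpG sites, and 94.6% of the 32851 promoter windows held more. The Gm5636 window held 19 CpG sites, and 26.5% of windows held more. The pattern GGGNNNNNCC, a loose form of the NF-kB site, was searched on both strands and was in the Gm5636 window and not in the Gm46074 window, and 50.8% of all promoter windows hold it. The pattern GAAANNGAAA, a loose form of the interferon response element, searched in the same way, was in neither, and 3.44% of all windows hold it. In Gm46074, 98.6% of 144 compared bases were identical to the base 156 positions further on, and in Gm5636 98.9% of 94 bases were identical to the base 206 positions further on. A direct repeat of at least 90% identity over at least 80 bases was present in 17 of the 32851 windows (0.0517%) and in 6 of the 42 windows under other NF-kB regions. This search for repeats was chosen after the sequences had been seen.

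The 654 regions made up 44.2% (41.6 to 46.8%) of the 1480 WT LPS regions that were absent from the untreated WT list, and 13.8% of all regions with an NF-kB peak. The same count with the genotypes exchanged was lower. Of the 845 KO LPS regions absent from the untreated KO list, 112 (13.3%, 11.0 to 15.7%) were listed in untreated WT. The untreated KO list held 3065 peaks and the untreated WT list 1462. With every list cut to its 1462 best-ranked peaks, the regions numbered 279 (40.7%, 37.0 to 44.5%, of 686), and the exchanged count was 147 (24.8%, 21.4 to 28.5%, of 593). Regions present in all NF-kB lists but 1 most often missed the untreated WT list, which was the missing list for 359 regions. The missing list was KO LPS for 93 regions, untreated KO for 59 and WT LPS for 66. At equal length these counts were 164, 77, 85 and 64 in the same order.

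Most regions were clear of untreated WT peaks by more than a few bases. Their median distance to an untreated WT NF-kB peak was 543054 bp, with 27 regions within 10 kb and 1 within 1 kb. The nearest was a region on chromosome 5 (15592766 to 15593050), 445 bp from such a peak and 10674 bp from Gm21083. The next lay 1147 bp and 1267 bp from one. On the other side of the rule, regions on chromosomes X, 3 and 13 were left out because an untreated WT peak shared 158, 172 and 176 bp with them.

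Among WT LPS regions that were absent from the untreated WT list, the best-ranked were the ones most often listed in untreated KO cells. Peaks were ranked within each list by the authors' deposited p-value, which may describe how well replicates agreed rather than enrichment over input. With the WT LPS list divided by rank into 4 equal parts, 107 of 137 such regions in the first part (78.1%, 70.2 to 84.7%) were in the untreated KO list. The shares were 58.7% of 390 regions in the second part, 39.8% of 447 in the third and 27.7% of 506 in the last. These ranks belong to a list that chose the regions and are given as a description.

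**Figure D1:**
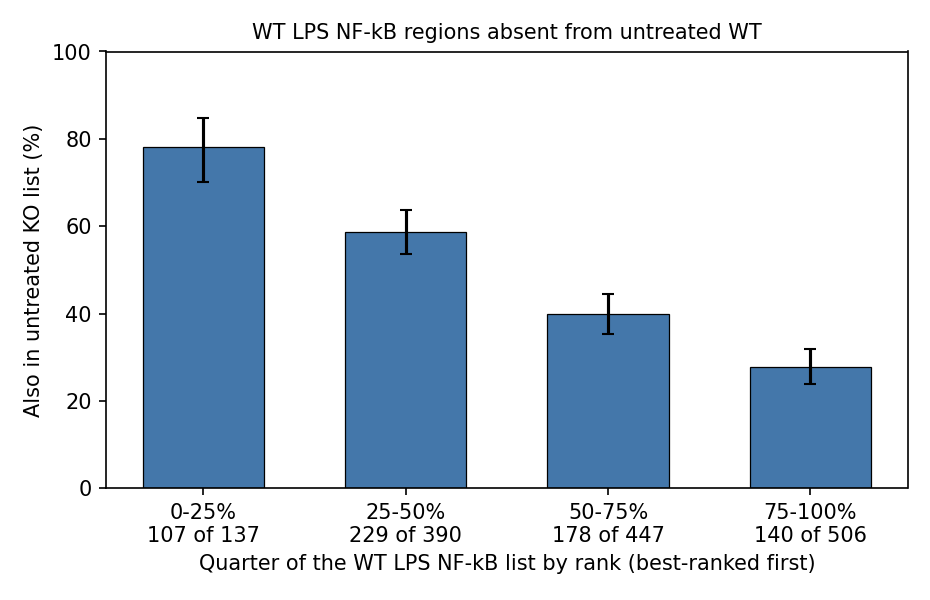
Share of WT LPS NF-kB regions absent from untreated WT that were also in the untreated KO NF-kB list (y axis, percent) by rank in the WT LPS list, in 4 equal parts with the best-ranked first (x axis, with counts). Bars are shares and whiskers exact 95% binomial intervals; the share was 78.1% in the first part and 27.7% in the last.

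In both lists that define them the regions were spread over the ranks, with medians near the middle. In the untreated KO list their 692 peaks had a median rank percentile of 41.6 (0 is best), against 53.3 for the other 2373 peaks. In the WT LPS list their 683 peaks had a median of 50.6, against 49.8 for the other 1811. The percentile was better in untreated KO than in WT LPS for 412 of the 654 regions (63%). A percentile depends on the length of its list, which was 3065 peaks in untreated KO and 2494 in WT LPS, and by plain rank number 320 of the 654 (48.9%) were better placed in untreated KO. Both lists chose the regions, so neither count is a test. Few peaks had a deposited q-value under 0.05. In untreated KO these were 75 of 692 (10.8%, 8.62 to 13.4%) against 14.6% of the other peaks, and in WT LPS 32 of 683 (4.69%, 3.23 to 6.55%) against 16.5%. In 21 regions (3.21%) both peaks had a q-value under 0.05. The regions supplied 7 of the 100 best-ranked peaks in untreated KO and 4 in WT LPS.

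**Figure D2:**
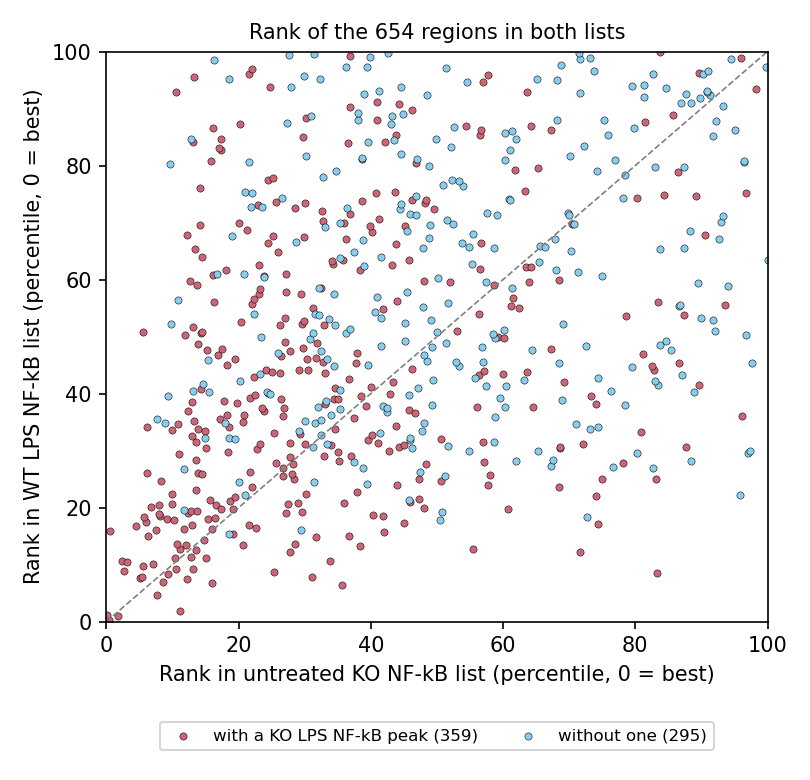
Rank percentile of the 654 regions in the untreated KO NF-kB list (x axis) and in the WT LPS NF-kB list (y axis), where 0 is the best rank. Each point is 1 region, coloured by whether it had a KO LPS NF-kB peak (359) or not (295), and the dashed line marks equal percentiles; 412 points lie above the line, with the better percentile in untreated KO, the longer list.

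None of the 10 highest-ranked regions lay within 10 kb of a gene of the inflammatory and macrophage lists described further on. Of all regions with an NF-kB peak 0.995% lay that near, so 10 regions are too few to differ from that share. First by the sum of both percentiles was the region overlapping Gm21119 on chromosome 8 (20646740 to 20650356), which also holds the Gm46074 window printed above. It ranked 19 in KO LPS, 10 in untreated KO and 7 in WT LPS among NF-kB peaks. Among IRF3 peaks it ranked 16 in KO LPS, 12 in untreated KO, 86 in WT LPS and 63 in untreated WT. It was thus absent from the untreated WT NF-kB list alone.

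The second region held the best-ranked NF-kB peak of untreated KO cells. It spanned 4721 bp on chromosome 11 (3100019 to 3104739), 27111 bp from Sfi1, which encodes a centrin-binding protein of the centrosome. It ranked 18 in KO LPS, 1 in untreated KO and 28 in WT LPS, and the nearest untreated WT NF-kB peak lay 7767 bp away. Its IRF3 peaks ranked 12 in KO LPS, 321 in untreated KO and 343 in WT LPS, with none in untreated WT.

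The third was unlike the others in width. On chromosome 4 (64497779 to 64498050), with no protein-coding gene within 100 kb, NF-kB peaks of 155 bp in KO LPS, 154 bp in untreated KO and 155 bp in WT LPS ranked 14, 53 and 26. The IRF3 peak there ranked 1117 in KO LPS, 39 in untreated KO, 1 in WT LPS and 2 in untreated WT. Untreated WT cells thus had an IRF3 peak and no NF-kB peak at this position.

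Eef2, which encodes translation elongation factor eEF2, held a region inside its span on chromosome 10 (81177801 to 81179218) that also covers Snord37, a small nucleolar RNA gene. Its NF-kB peaks ranked 1628 in KO LPS, 81 in untreated KO and 222 in WT LPS. The deposited q-value was 0.805 in KO LPS, 0.00162 in untreated KO and 0.0235 in WT LPS. No untreated WT NF-kB peak lay within 1199231 bp. IRF3 peaks were listed in KO LPS (rank 285), untreated KO (628) and WT LPS (596), and not in untreated WT.

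The remaining regions of the best 10 lay at varied distances from genes. A region inside Morc1, known for silencing transposons in the mouse germ line, ranked 345 in KO LPS, 156 in untreated KO and 190 in WT LPS. Another lay 3377 bp from Ssxb9 on chromosome X, at ranks 92, 233 and 118 in the same order. A region 49526 bp from Spin4 ranked 62, 342 and 47, and an untreated WT NF-kB peak lay 1713 bp from it. A region 62195 bp from Sox17, an endoderm transcription factor gene, ranked 203, 95 and 261. Both others had no gene within 100 kb. A region inside Smo, the Hedgehog pathway receptor gene, was not among the best 10 and was picked out after its values were seen, with ranks of 180 in KO LPS, 19 in untreated KO and 396 in WT LPS.

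Of the 654 regions, 359 (54.9%, 51.0 to 58.8%) also had an NF-kB peak in KO cells with LPS, a list the rule did not use, against 46.8% of all regions with an NF-kB peak. That background includes 547 regions that were in the KO LPS list and no other NF-kB list. For regions in WT LPS and untreated KO that untreated WT did share, the figure was 88.5% (715 of 808). It was 22.5% (186 of 826) for WT LPS regions in neither untreated list and 16.9% (224 of 1322) for untreated KO regions in neither WT list. The other 295 regions were listed in untreated KO and in WT LPS but not in KO with LPS. Where present, the peaks of these regions in the KO LPS list had a median rank percentile of 49.1, against 50.3 for the other peaks, and 12 of 401 (2.99%, 1.56 to 5.17%) had a q-value under 0.05, against 10.9% of the other peaks.

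An IRF3 peak in any list was present at 459 regions (70.2%, 66.5 to 73.7%), against 46.6% of all regions with an NF-kB peak. By condition, 318 regions (48.6%, 44.7 to 52.5%) had one in KO LPS, 304 (46.5%, 42.6 to 50.4%) in untreated KO, 196 (30.0%, 26.5 to 33.6%) in WT LPS and 119 (18.2%, 15.3 to 21.4%) in untreated WT. The backgrounds in that order were 30.0, 29.7, 23.8 and 18.8%. Those backgrounds include 2520 regions held by a single NF-kB list, of which 21.7% had any IRF3 peak, while the rule asks for at least 2 lists. In the 715 regions held by all 4 NF-kB lists the share was 95.2%. The IRF3 lists held 1792 peaks in KO LPS, 1707 in untreated KO, 1424 in WT LPS and 1169 in untreated WT, in the same order as the shares, and the part of list length in this order was not tested.

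Beside other regions held by as many NF-kB lists, the regions had any IRF3 peak at shares whose intervals overlapped. The share was 81.6% (77.2 to 85.5%) for the 359 regions in 3 NF-kB lists, against 83.0% (77.4 to 87.8%) of 218 others in 3. For the 295 regions in 2 NF-kB lists it was 56.3% (50.4 to 62.0%), against 54.1% (50.1 to 58.1%) of 617 others in 2. In some single IRF3 lists the shares lay further apart, with intervals that overlapped or met at their ends. In 3 NF-kB lists, the KO LPS IRF3 share was 62.4% (57.2 to 67.4%) at the regions and 50.5% (43.6 to 57.3%) at the others, and the untreated WT share was 25.1% (20.7 to 29.9%) at the regions and 36.2% (29.9 to 43.0%) at the others. The WT LPS shares there were 38.7% (33.7 to 44.0%) and 44.0% (37.3 to 50.9%), and the untreated KO shares 59.9% (54.6 to 65.0%) and 51.4% (44.5 to 58.2%). In 2 NF-kB lists, the KO LPS shares were 31.9% (26.6 to 37.5%) and 27.9% (24.4 to 31.6%), and the untreated WT shares were 9.83% (6.68 to 13.8%) and 16.7% (13.8 to 19.9%). The WT LPS shares there were 19.3 and 20.1%, and the untreated KO shares 30.2 and 25.6%. The rule itself asks for absence from the untreated WT NF-kB list. By construction, each of the 218 others in 3 NF-kB lists had a peak in that list, so the untreated WT comparison is tied to the rule. These comparisons were added after the data had been seen, and no difference was tested.

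**Figure D3:**
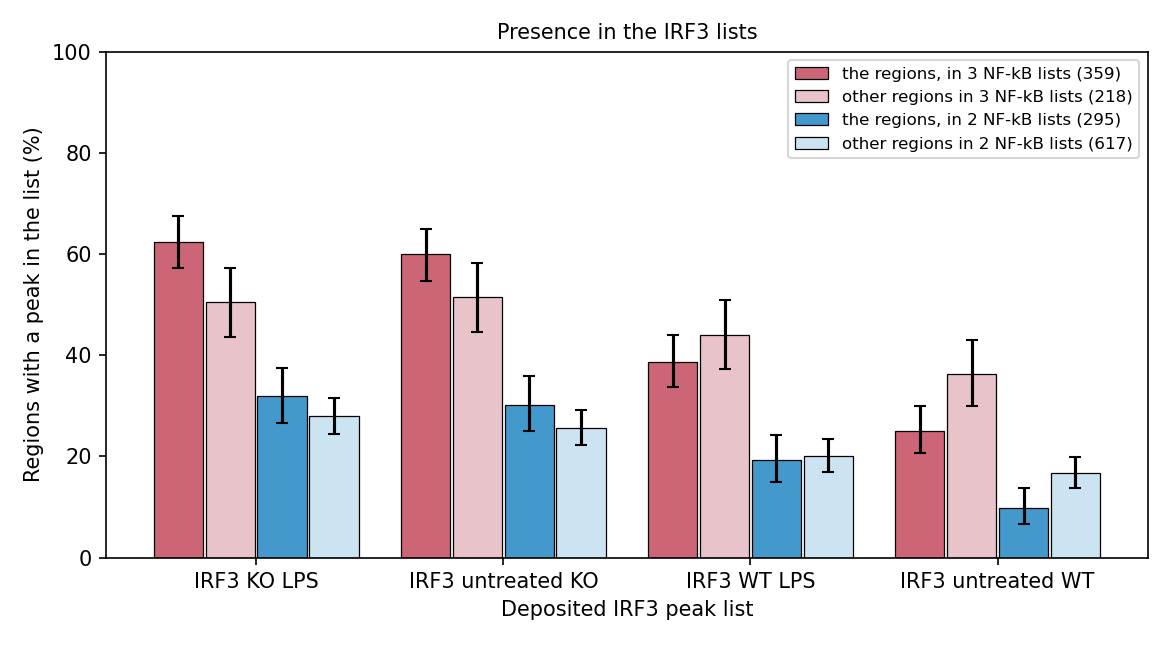
Percent of regions with a peak in each deposited IRF3 list (y axis) by list (x axis), for the 654 regions and for other regions held by the same number of NF-kB lists, 3 or 2. Bars are shares and whiskers exact 95% binomial intervals. In 3 NF-kB lists the share in untreated WT was 25.1% at the regions and 36.2% at the others, and in KO LPS it was 62.4% and 50.5%. All others in 3 NF-kB lists had an untreated WT NF-kB peak, by construction.

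An IRF3 peak was present in untreated KO and not in untreated WT at 227 regions (34.7%, 31.1 to 38.5%), against 16.2% of all regions with an NF-kB peak. One was present in untreated WT and not in untreated KO at 42 (6.42%, 4.67 to 8.58%), against 5.38%. Within WT, 127 regions (19.4%, 16.5 to 22.7%) had an IRF3 peak with LPS and not without it, against 11.0%, and 50 (7.65%, 5.73 to 9.96%) had one without LPS and not with it, against 6.08%. The longer IRF3 list held the larger count in both pairs, over the regions as over all NF-kB regions. These backgrounds include the 2520 regions held by a single NF-kB list and were not matched by number of NF-kB lists. The most common combination, after no IRF3 peak at all (195 regions), was KO LPS, untreated KO and WT LPS together without untreated WT (82 regions). All 4 IRF3 lists held a peak at 39 regions (5.96%).

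By the number of lists that held them, 129 regions were in the pair of defining lists alone, 164 in 3 lists, 122 in 4, 102 in 5, 103 in 6 and 34 in 7. The best-ranked of the 129 lay inside Ranbp3l, a gene of the Ran-binding protein family, on chromosome 15 (9015821 to 9016288). Its peaks of 384 bp in untreated KO and 468 bp in WT LPS ranked 642 and 554. Another lay inside Ccdc93, which encodes an endosomal sorting protein, at ranks 599 and 797. A further one lay 39006 bp from Tnfrsf11b, the gene of osteoprotegerin, a decoy receptor for the osteoclast factor RANKL, at ranks 456 and 806. None of the peaks of these 3 regions had a q-value under 0.05. Of the 34 regions in 7 lists, those best placed after Gm21119, the chromosome 4 region, Ssxb9 and Spin4 were 2 others. A 10074 bp region on chromosome 16 (3231614 to 3241687) had no gene within 100 kb, and a 3125 bp region on chromosome 6 lay 7992 bp from A630073D07Rik.

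Fewer peaks at the regions were narrow than among the other peaks of each list. The rule asks for overlapping peaks in at least 2 lists, which is tied to width. Joined regions had a median width of 1357 bp in the set and 2200 bp in all 4 NF-kB lists. The median was 471 bp in WT LPS and 538 bp in untreated KO for regions in no other NF-kB list. The widths below were not matched by number of lists. Peaks at the 654 regions had a median width of 955 bp in KO LPS, 1041 bp in untreated KO and 988 bp in WT LPS. The other peaks of those NF-kB lists had medians of 941, 910 and 1075 bp. Peaks under 500 bp made up 18.0% (14.3 to 22.1%) in KO LPS, 12.9% (10.5 to 15.6%) in untreated KO and 15.7% (13.0 to 18.6%) in WT LPS, against 31.7, 28.8 and 28.1% of the other peaks. Sheared fragments were between 100 and 300 bp long. In the IRF3 lists the share of narrow peaks at the regions was 5.69% in KO LPS, 10.4% in untreated KO, 10.2% in WT LPS and 7.38% in untreated WT, against 15.1, 14.6, 17.3 and 18.6% of the other peaks. Very wide peaks were also less common, since the 90th percentile of width lay between 1763 and 2159 bp at the regions in all 7 lists and between 2314 and 2689 bp for the other peaks.

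**Figure D4:**
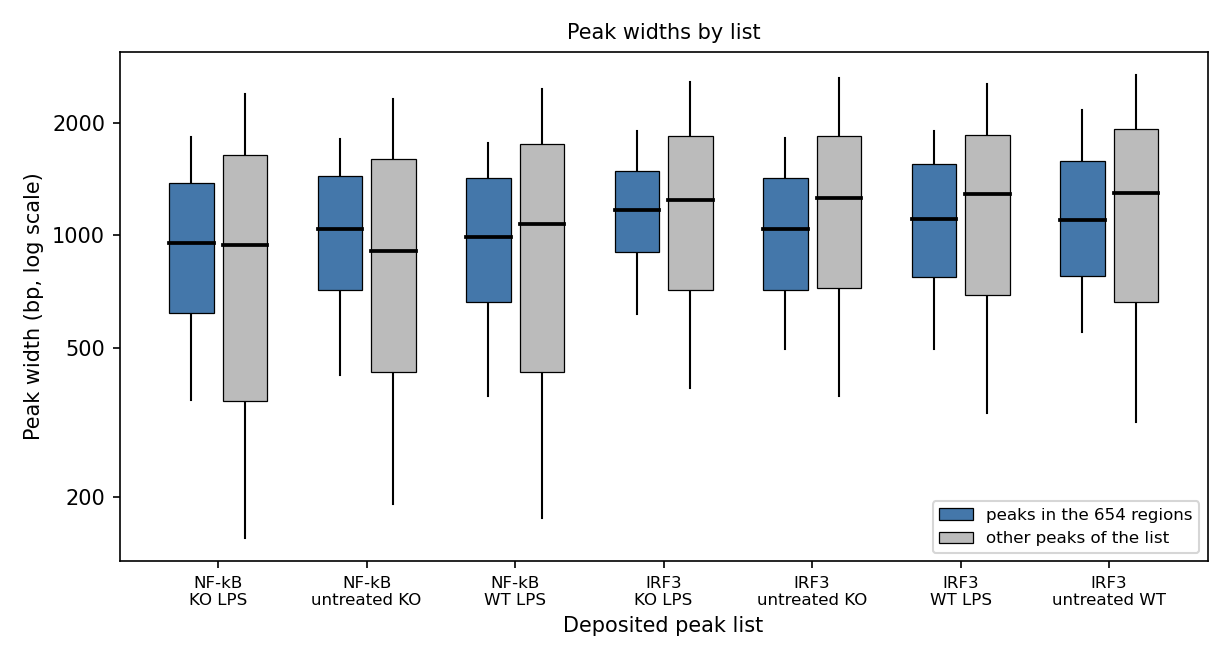
Peak width in bp (y axis, log scale) in each deposited list that holds any of the 654 regions (x axis), for peaks in the regions and for the other peaks of the list. The other peaks were not matched by the number of lists that held them. Boxes span the 25th to 75th percentile, thick lines mark the median and thin lines the 10th to 90th percentile; the peaks in the regions covered a smaller range of widths in each list, with medians of 1041 bp in untreated KO NF-kB and 988 bp in WT LPS NF-kB.

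In 36 regions (5.50%, 3.88 to 7.54%) both defining peaks were under 500 bp. Of the 8 best-ranked of these, the chromosome 4 region came first and the Ranbp3l region second. A pair of them lay inside Sfi1, and another pair 1913 and 4032 bp from Gm21190 on chromosome 5. One lay inside Qrfprl on chromosome 6 (65418736 to 65419071), at ranks 1245 in untreated KO and 1355 in WT LPS, and the last had no gene within 100 kb.

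No gene of the inflammatory, signalling or macrophage lists lay within 10 kb of a region. The 9 lists cover NF-kB targets (cytokines, chemokines and others), NF-kB pathway and feedback genes, LPS receptor signalling and interferon-stimulated genes. They also cover macrophage identity, antigen presentation, DNA methylation enzymes, cytosolic DNA sensing and the inflammasome. Regions within 10 kb of a listed gene numbered 0 of 654 (0 to 0.562%, where 3 regions would make 0.459%), against 0.995% (47 of 4724) of all regions with an NF-kB peak. Among the 186 regions found with LPS in both genotypes and in neither untreated list the number was 11 (5.91%, 2.99 to 10.3%). The listed genes there were Fth1, Ptges, Sod2, Bcl3, Malt1, Tnfaip3, Tnip1, Irak3 and Nlrp3. The gene lists were chosen with earlier results of these data known, so this contrast is a description and not a test. For regions in no other NF-kB list the counts were 2 of 640 (0.312%) in WT LPS and 6 of 1098 (0.546%) in untreated KO. For regions in all 4 the count was 2 of 715 (0.280%). These shares lie within the interval of the 654 regions, so a low share was not particular to them. The 654 regions thus lay within 10 kb of none of the 37 NF-kB targets and none of the 37 pathway and feedback genes. Over all 4724 NF-kB regions, of which the 654 make up 13.8%, 9 and 11 of these genes had a region that near. The 9 were Fth1, Il1b, Lcn2, Ptges, Saa1, Saa2, Saa3, Sod2 and Tlr2, not all of them cytokine or chemokine genes.

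**Figure D5:**
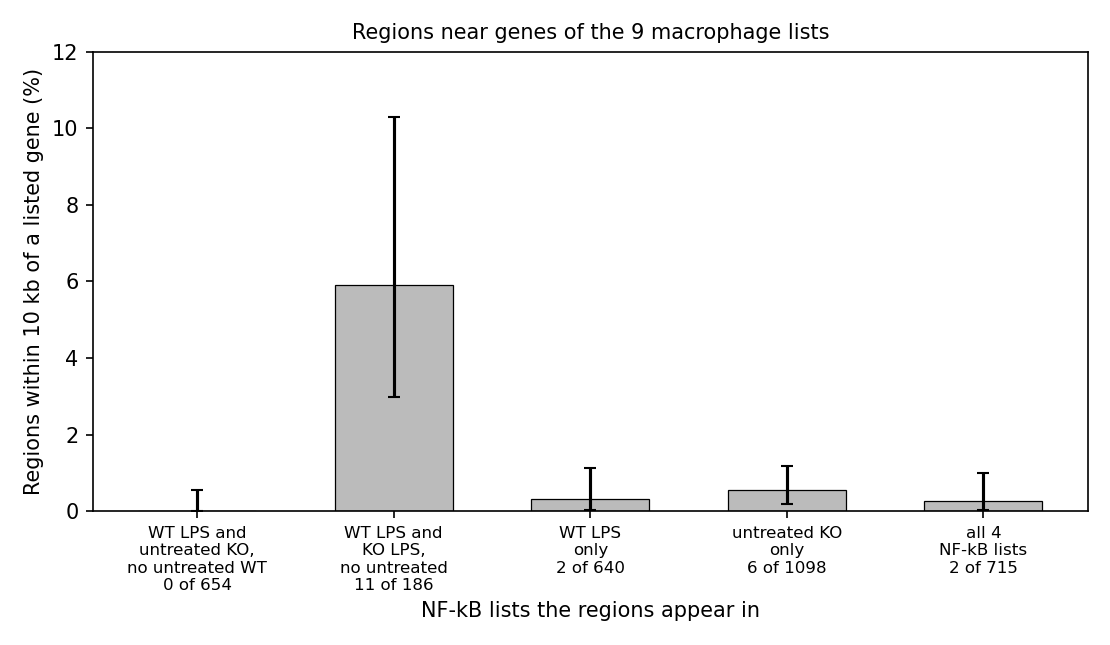
Percent of regions within 10 kb of a gene of the 9 macrophage lists (y axis) by the NF-kB lists in which the regions appeared (x axis, with counts). The gene lists were chosen with earlier results of these data known. Bars are shares and whiskers exact 95% binomial intervals; the share was 0 of 654 for the regions in WT LPS and untreated KO without untreated WT, and 5.91% for the regions in WT LPS and KO LPS without either untreated list.

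Within 100 kb the listed macrophage genes nearest to a region were Bcl10, which encodes a signalling adaptor upstream of NF-kB, at 58441 bp, Samd9l, an interferon-stimulated gene, at 79749 bp, and Tirap, an adaptor of Toll-like receptors, at 98434 bp. The region near Bcl10 ranked 1600 in untreated KO and 2077 in WT LPS. The region near Tirap ranked 1270 and 826 in the same order. Of the 6 lists of markers for other cell types, 1 gene had a region within 10 kb. It was Lepr, the leptin receptor gene and a marker of marrow stromal cells, with a region inside the gene on chromosome 4 (101769393 to 101770187) that ranked 2242 in untreated KO and 844 in WT LPS, with q-values of 0.749 and 0.247.

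Few regions lay close to a gene end. Within 1 kb lay 6 (0.917%, 0.337 to 1.99%), against 2.12% of all regions with an NF-kB peak. A protein-coding gene span was overlapped by 220 regions (33.6%, 30.0 to 37.4%), against 30.1%, which lies within that interval. Within 10 kb of a gene end lay 94 (14.4%, 11.8 to 17.3%), against 17.1%, and within 50 kb 294 (45.0%, 41.1 to 48.9%), against 47.8%. No gene span lay within 100 kb of 219 regions (33.5%), against 31.7%. The median distance to a gene end was 62748 bp, against 54010 bp for the other NF-kB regions and 29943 bp for those found with LPS in both genotypes. It was 62156 bp for regions in all 4 NF-kB lists. For regions in no other NF-kB list it was 69310 bp in WT LPS and 55824 bp in untreated KO.

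The 6 regions within 1 kb of a gene end were at Gm21119, Gcnt2, BB287469, Tnfsf10, Vmn2r39 and 2310022A10Rik, the last of which holds its region 516 bp from the end of Gm45975. Tnfsf10 encodes TRAIL, a ligand that triggers apoptosis through death receptors. Its region on chromosome 3 (27318034 to 27319702) began 957 bp inside the gene and 908 bp from the promoter window, with peaks of 811 bp in untreated KO and 639 bp in WT LPS that ranked 2084 and 1539. The deposited q-values were 0.667 and 0.591, and an IRF3 peak was listed in KO LPS alone, at rank 613. Gcnt2, which encodes an enzyme that branches glycan chains, had a 3353 bp region 781 bp from its end, present in all lists except untreated WT NF-kB. It ranked 1441 in KO LPS, 1124 in untreated KO and 377 in WT LPS.

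Most host genes held a single region. The 220 regions inside gene spans fell in 208 genes, of which 199 held 1 region, 7 held 2 and 2 held 3 or more. A region was counted in each gene it overlapped, and 5 regions overlapped 2 genes. Sfi1 held 9 regions and Nell1, a long gene for a secreted protein that was picked out after its count was seen, held 3. The Sfi1 gene spans 71498 bp and Nell1 887940 bp. Of the 9 regions inside Sfi1, all have their defining peaks at ranks of 597 or worse in untreated KO and 942 or worse in WT LPS. With the region outside the gene they form a run of 10 on chromosome 11 (3100019 to 3184085), the longest run of neighbours within 100 kb, while 606 of the 654 regions stood alone.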

How the data were processed

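ChIP-seq peak lists were analysed for 22 NF-kB and IRF3 samples. Inputs, bisulfite and ATAC-seq samples were not analysed here. Per the labels, the authors merged the replicates of a group into 1 list. Per the submitters' processing notes the build is mm10 and the tools include MACS2 2.1.1, Picard 2.8.0, deepTools 3.5.0 and HOMER 4.9, with no role stated. The sources used here give no aligner, caller settings or read depth. "chipr" in the list names may stand for a tool that combines replicates by rank. No list has column names. Each deposited peak has a score, a signal value of unstated normalization (used to break ties), a p-value and a q-value. The largest deposited q-value per list lay between 0.893 and 0.912.

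Peaks were joined when they overlapped by 1 bp, ranked by p-value, and set beside 21887 protein-coding genes of the GRCm38.p6 table, measured from either gene end because that table has no strand. The joining was tested on simulated lists. Python 3.11.15, NumPy 2.4.6, SciPy 1.17.1 and Matplotlib 3.10.9 were used. The members and gene lists (269 symbols, 264 matched) were chosen with earlier results of these data known. Genes were named by the nearest span within 100 kb: the best 10 regions by summed percentile, 8 narrow ones, 6 in 7 lists, 6 in 2 lists, up to 8 within 1 kb of a gene end, every gene of a list within 10 kb, and the regions at the edge of the rule. Some are summarised. Alternatives varied joining, list length, p-value, width, overlap and distance. The planned base composition of all regions was not run, for want of a genome sequence. Whether replicates were separate animals is not stated in the labels.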

Additional observations from a re-analysis of the deposited data

How the results depend on the processing

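No paired analysis was possible because each list merges its group's replicates, which also leaves no replicate to leave out. The count of 654 regions was 656, 655, 578 and 684 with peaks joined within 1 kb, with the 4 NF-kB lists joined alone, with a p-value under 0.05 and with peak-by-peak overlap of at least 50% of the shorter peak, and no share left its interval under these settings. NF-kB lists cut to equal length gave 279 regions, of which 58.8% were in KO LPS and 79.6% in an IRF3 list. The IRF3 lists of untreated WT (1169 peaks) and WT LPS (1424) were shorter than the cut, so the IRF3 lists stayed unequal. Peaks under 500 bp alone gave 37 regions, with 16.2% in KO LPS, 18.9% in an IRF3 list, 37.8% inside a gene span and 24.3% within 10 kb of a gene end. That setting leaves few peaks, by construction. The share near a gene end was 0.917% within 1 kb and 45.0% within 50 kb. The count of 0 genes of the macrophage lists stayed at 0 under each of these settings and within 50 kb, alternatives added after seeing the data. Read depth is unknown, so a region missing from a list may lie below its threshold.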

Other observations

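The nearest gene had a name prefix of a multigene family (such as vomeronasal receptor, zinc finger and olfactory receptor genes) at 59 regions (9.02%, 6.94 to 11.5%), against 10.7% of all regions with an NF-kB peak. Vomeronasal receptor genes accounted for 12 of these regions, zinc finger genes for 11 and olfactory receptor genes for 10. The nearest gene was a predicted gene model with a name starting in Gm, which names no family, at 46 regions (7.03%), against 8.59%. Both together came to 105 regions (16.1%, 13.3 to 19.1%), against 19.3%, and the difference was not tested. Pseudogenes were overlapped by 13 regions (1.99%), against 2.18%, and long non-coding RNA genes by 45 (6.88%), against 7.09%.

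A 9290 bp region on chromosome 8 (123614315 to 123623604), singled out after its values were seen, covers 5 annotated ribosomal RNA genes, among them n-R5s146 and n-R5s149. Its NF-kB peaks ranked 283 in KO LPS, 1280 in untreated KO and 462 in WT LPS, and its IRF3 peak ranked 1425 in KO LPS, with none in the other IRF3 lists. A region overlapping the immunoglobulin locus Igk, picked out in the same way, ranked 756 in KO LPS, 442 in untreated KO and 646 in WT LPS. One overlapping Igh ranked 2211 in KO LPS, 1948 in untreated KO and 2317 in WT LPS.

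The regions were spread over chromosomes 1 to 19 and X much like other NF-kB regions. Chromosome X held 61 (9.33%), against 10.3% of all regions with an NF-kB peak, and chromosome 17 held 15 (2.29%), against 3.18%. The share of a chromosome's NF-kB regions that belonged to the set ranged from 10% on chromosome 17 to 16.9% on chromosome 9.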
